A study of Mus musculus with 20 samples.

Results

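The genes described here are grouped as acting on collagen between its synthesis and its assembly into fibres. They encode the prolyl 4-hydroxylase subunits P4ha1 and P4ha2, the lysyl hydroxylases Plod1, Plod2 and Plod3, and the collagen chaperone Serpinh1 (HSP47). The others encode the cyclophilin Ppic, the procollagen C-proteinase enhancer Pcolce, and the lysyl oxidases Lox and Loxl1. Ppic is related to Ppib, the cyclophilin with a known part in collagen folding, and its own action on collagen was not tested. The set is given by 10 gene names, with no cut-off on measured values, though it was drawn up with earlier results of these data known. On the array 18193 genes had a probe set annotated to their symbol alone. Of these, 12082 genes, all 10 named ones included, lay above the filter on low values and were tested. Each gene was read from the probe set with the highest mean level over all arrays.

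Collagen chains enter the endoplasmic reticulum as procollagen, where prolyl hydroxylation lets the triple helix hold at body temperature and lysyl hydroxylation prepares sites for sugars and crosslinks. Peptidyl-prolyl isomerases speed the folding of the helix, and HSP47 binds the folded helix and travels with it. After secretion the end propeptides are cut off, and lysyl oxidases convert lysine and hydroxylysine side chains so that neighbouring molecules become crosslinked. In the heart most fibrillar collagen is made by fibroblasts, and crosslinking makes the matrix stiffer.

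Expression was measured in heart ventricles of female C57BL/6 mice, on 20 single-sample Affymetrix arrays. The mice were ovariectomized at 8 weeks of age, which removes the main source of estrogen, and were given Alzet minipumps for 4 weeks. All groups share the ovariectomy, so none shows an intact estrous cycle. The 4 groups of 5 arrays each were 16 alpha LE2, named in the labels as an agonist of estrogen receptor alpha; 17 beta estradiol, named there as an estrogen receptor agonist; a group titled beta; and placebo. The beta-titled arrays carry a treatment label of control solution, so title and treatment label disagree, and these arrays were treated as a separate group. The pumps held cyclodextrinated estrogens or placebo solution, and no dose is given. The agonists were therefore set side by side at the same duration but at no known common dose.

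The labels do not state in so many words that the samples of a group came from separate animals, so the p-values measure the spread between these samples. Array means lay between 7.36 and 7.37 on the log2 scale. Spearman correlations between arrays were 0.978 to 0.992, apart from those of 17 beta estradiol array 33, which were 0.922 to 0.941. Some results that involve that array are also given without it. The labelled tissue matched its markers: the mean log2 level of 8 cardiomyocyte genes was 13.84 to 13.97 on the 16 alpha LE2 arrays, 13.78 to 14.08 on the 17 beta estradiol arrays, 13.75 to 13.95 on the beta-titled arrays and 13.70 to 14.11 on the placebo arrays. That of 3 atrial genes differed widely between arrays, from 7.31 to 11.30, in overlapping ranges over the groups, and its part in the results was not tested. Arrays are numbered as in their titles.

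The sequences upstream of the start are given for the proline hydroxylases, the chaperone and the propeptide enhancer, which belong to a set of genes that varied together from array to array (described further on). They are the 250 bases before the RefSeq start in GRCm38.p6, written 5′ to 3′ along the gene. P4ha1 lies at chr10:59323046-59323295 on the plus strand, P4ha2 at chr11:54100674-54100923 on the plus strand, Serpinh1 at chr7:99353240-99353489 on the minus strand and Pcolce at chr5:137611405-137611654 on the minus strand. Capitals mark the core GGTCA of the estrogen response element and the ACGTG form of the core of the hypoxia response element. Both are marked on either strand, so that they also appear as TGACC and CACGT. The GCGTG form of the hypoxia core was not searched for and is not marked. The marked matches do not overlap.
P4ha1: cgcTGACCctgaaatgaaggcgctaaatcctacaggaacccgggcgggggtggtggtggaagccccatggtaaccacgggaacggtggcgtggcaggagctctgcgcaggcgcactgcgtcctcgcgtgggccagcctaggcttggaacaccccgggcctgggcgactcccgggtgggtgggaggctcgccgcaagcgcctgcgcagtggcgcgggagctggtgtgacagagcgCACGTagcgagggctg
P4ha2: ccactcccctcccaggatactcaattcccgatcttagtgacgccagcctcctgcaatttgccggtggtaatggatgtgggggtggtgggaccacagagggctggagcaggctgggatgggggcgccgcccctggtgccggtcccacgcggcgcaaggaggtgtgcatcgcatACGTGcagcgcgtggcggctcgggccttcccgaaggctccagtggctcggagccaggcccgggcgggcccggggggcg
Serpinh1: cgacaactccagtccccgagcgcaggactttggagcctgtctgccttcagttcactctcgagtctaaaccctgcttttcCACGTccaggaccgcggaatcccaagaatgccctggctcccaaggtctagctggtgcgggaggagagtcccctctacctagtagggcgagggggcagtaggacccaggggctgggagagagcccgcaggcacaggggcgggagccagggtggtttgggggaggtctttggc
Pcolce: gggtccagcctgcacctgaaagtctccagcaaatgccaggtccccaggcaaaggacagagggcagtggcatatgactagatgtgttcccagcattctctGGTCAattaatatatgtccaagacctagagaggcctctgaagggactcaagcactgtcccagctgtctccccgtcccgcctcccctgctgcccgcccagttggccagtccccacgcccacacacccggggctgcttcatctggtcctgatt
Windows were read for 6 genes (these 4, Plod1 and Plod3) and not for Ppic, Plod2, Lox or Loxl1. Of the 6, P4ha1 and Pcolce hold the estrogen core, 247 and 151 bases before the start, as do 35.2% of the 32851 promoter windows of the same length. The ACGTG form of the hypoxia core stands 16 bases before the start of P4ha1, 78 before P4ha2, 54 before Plod3 and 171 before Serpinh1, and in 16.6% of all windows. The complete palindromic estrogen element, in which GGTCA and TGACC stand 3 bases apart, is in none of the 6 windows and in 0.0639% of all windows. A match describes letters in a window and not a bound site.

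With 16 alpha LE2 the cyclophilin gene Ppic fell relative to placebo, and it was the only one of the 10 genes to pass the threshold in any of the 6 comparisons made between groups. Serpinh1 and Loxl1 were also below placebo at an unadjusted p under 0.05, as were 7.8% of all genes (9.01% in either direction), and did not pass. The proline and lysine hydroxylases had small changes with intervals that included 0, as had Pcolce and Lox. In RNA from whole ventricle, fewer cells that express a gene and less of its RNA per cell cannot be told apart. The count of called genes was 1 of 10, lower, against 24 lower and 3 higher among the 12082 genes tested (0.223% in either direction and 0.199% lower; after quantile normalization 16 lower and 7 higher). Leaving out 16 alpha LE2 array 30, 33 or 34 gave 11, 9 or 14 called genes in all, leaving out placebo array 31 or 33 gave 8 or 15, and leaving out 17 beta estradiol array 33 gave 74. Changes were below 0 for 8 of the 10 genes and for 59.7% of all genes, with a median log2 change of −0.12 over the 10 and −0.03 over all. After quantile normalization they were below 0 for 8 of the 10 and for 5344 of all genes, with medians of −0.06 and 0.01.

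**Figure D1:**
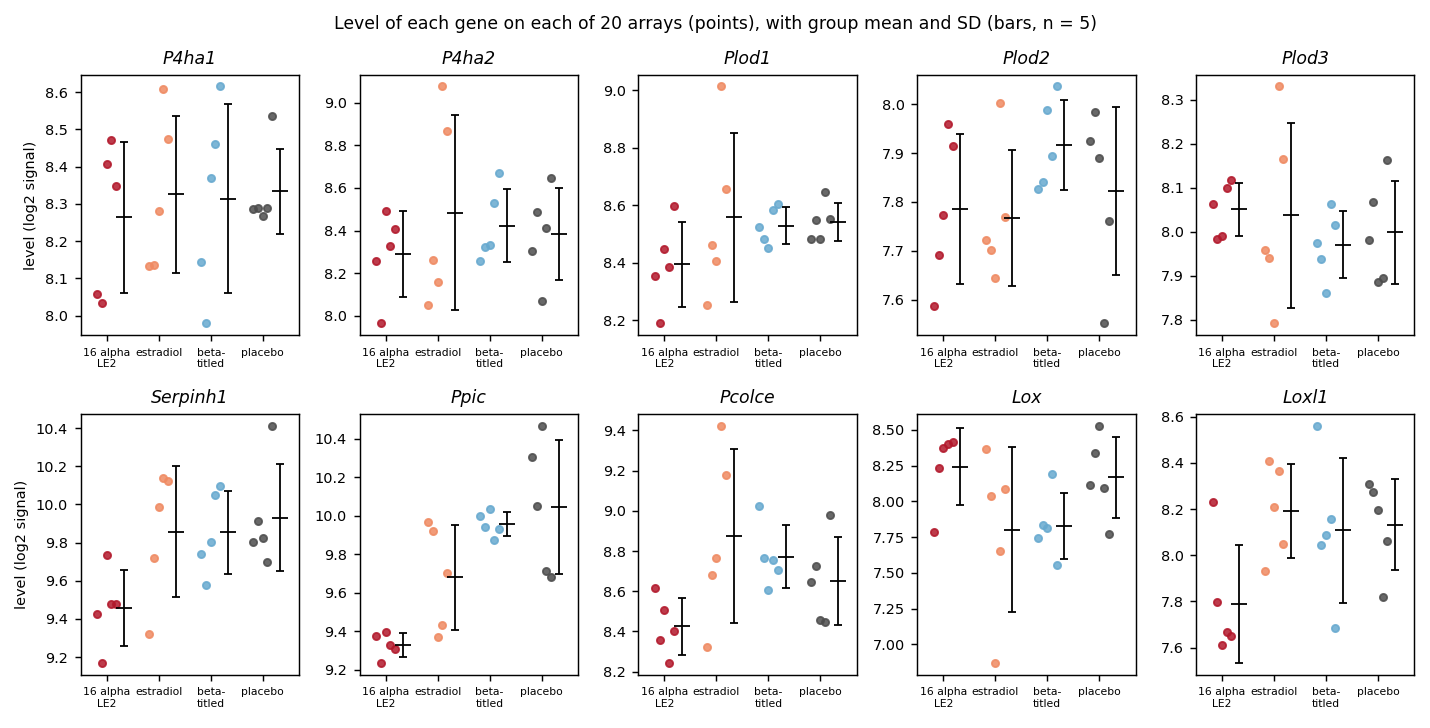
Log2 level (vertical axis) of each of the 10 genes on each of the 20 arrays, by group (horizontal axis: 16 alpha LE2, 17 beta estradiol, beta-titled, placebo), with 1 point an array and bars for the group mean and SD (n = 5). For Ppic the 16 alpha LE2 arrays, at 9.24 to 9.40, sit below every beta-titled and placebo array, whereas for P4ha1, P4ha2, Plod1, Plod2 and Plod3 all groups overlap.

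The prolyl 4-hydroxylase catalytic subunits come first in the sequence of modification. P4ha1 averaged 8.26 ± 0.20 with 16 alpha LE2, 8.33 ± 0.21 with 17 beta estradiol, 8.31 ± 0.25 in the beta-titled group and 8.33 ± 0.11 with placebo (log2 level, SD, n = 5 each). The group means thus lay within 0.07 log2 units of placebo, and 16 alpha LE2 minus placebo was −0.07 (95% interval −0.32 to 0.18; limma adjusted p = 0.923). Placebo array 36 read 8.54, and the other placebo arrays read 8.27 to 8.29. P4ha2 averaged 8.29 ± 0.20 with 16 alpha LE2, 8.48 ± 0.46 with 17 beta estradiol, 8.42 ± 0.17 in the beta-titled group and 8.39 ± 0.22 with placebo (log2 level, SD, n = 5 each). Its spread was widest with 17 beta estradiol, where the arrays read 8.05, 8.26, 8.16, 9.08 and 8.87 (arrays 29, 30, 33, 34 and 35). Arrays 34 and 35 stood above every other array of the study for this gene. The change of P4ha2 with 16 alpha LE2 relative to placebo was −0.10 ± 0.16 (log2, SE; limma adjusted p = 0.921).

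The lysyl hydroxylases differ in what they do: Plod1 acts on the helical part of the chain, Plod3 also adds sugars, and Plod2 acts mainly on the telopeptides, whose hydroxylysines give the more stable crosslinks. Plod1 averaged 8.39 ± 0.15 with 16 alpha LE2, 8.56 ± 0.29 with 17 beta estradiol, 8.53 ± 0.06 in the beta-titled group and 8.54 ± 0.07 with placebo (log2 level, SD, n = 5 each). On the 16 alpha LE2 arrays it read 8.36, 8.19, 8.45, 8.38 and 8.60, against 8.48, 8.55, 8.48, 8.65 and 8.55 on the placebo arrays. Array 34 was thus within the placebo range, and the other 16 alpha LE2 arrays were below every placebo array. The log2 change was −0.15 ± 0.11 (SE; limma adjusted p = 0.738).

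Plod2 averaged 7.79 ± 0.15 with 16 alpha LE2, 7.77 ± 0.14 with 17 beta estradiol, 7.92 ± 0.09 in the beta-titled group and 7.82 ± 0.17 with placebo (log2 level, SD, n = 5 each). Plod3 averaged 8.05 ± 0.06 with 16 alpha LE2, 8.04 ± 0.21 with 17 beta estradiol, 7.97 ± 0.08 in the beta-titled group and 8.00 ± 0.12 with placebo. Neither gene separated any pair of groups. Against placebo, 16 alpha LE2 gave log2 changes of −0.04 (95% interval −0.22 to 0.15) for Plod2 and 0.05 (−0.13 to 0.23) for Plod3 in the limma fit. These intervals are narrower than those of the crosslinking genes described further on, and they leave room for changes of either sign.

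Ppic encodes cyclophilin C, a peptidyl-prolyl isomerase of the secretory pathway related to Ppib, the cyclophilin with a known part in collagen folding. It read 9.374, 9.236, 9.397, 9.327 and 9.308 on the 16 alpha LE2 arrays (29, 30, 32, 33 and 34) and 9.969, 9.919, 9.371, 9.433 and 9.704 on the 17 beta estradiol arrays (29, 30, 33, 34 and 35). The beta-titled arrays (31, 32, 33, 35 and 36) read 10.001, 9.941, 10.034, 9.875 and 9.930, and the placebo arrays (31, 32, 33, 34 and 36) read 10.308, 10.053, 10.469, 9.714 and 9.682, all on the log2 scale. All 16 alpha LE2 arrays were low and close together and lay below all beta-titled and all placebo arrays. The 17 beta estradiol arrays divided into arrays 33 and 34, within or just above the 16 alpha LE2 range, and arrays 29, 30 and 35, within the placebo range. A gap of this kind, with every 16 alpha LE2 array below every placebo array, was found for 2.7% of the genes tested and for 1 of the 10 described here.

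Relative to placebo, Ppic was 1.64-fold lower with 16 alpha LE2, a log2 change of −0.72 ± 0.14 (SE) with a 95% interval from −0.999 to −0.434 (limma with Benjamini-Hochberg adjustment over all tested genes, adjusted p = 0.0219). The group means were 9.33 ± 0.06, 9.68 ± 0.27, 9.96 ± 0.06 and 10.05 ± 0.35 for 16 alpha LE2, 17 beta estradiol, the beta-titled group and placebo (log2 level, SD, n = 5 each). In this order each group overlaps the next in its values. With 17 beta estradiol the change relative to placebo was −0.37 ± 0.14, with an interval from −0.65 to −0.08, which did not pass (limma adjusted p = 0.499). Without 17 beta estradiol array 33 that change was −0.29. The call for 16 alpha LE2 rested on several single arrays: the adjusted p was 0.0856, 0.0668 or 0.0511 without 16 alpha LE2 array 30, 33 or 34, and 0.107, 0.0518 or 0.0732 without placebo array 31, 32 or 33, with log2 changes from −0.81 to −0.61 over all arrays left out in turn. It was 0.0548 when only the 16 alpha LE2 and placebo arrays were fitted.

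Serpinh1 encodes HSP47, the chaperone specific to collagen. It read 9.43, 9.17, 9.74, 9.48 and 9.48 on the 16 alpha LE2 arrays and 9.32, 9.72, 9.99, 10.14 and 10.12 on the 17 beta estradiol arrays, in the array order given for Ppic. The beta-titled arrays read 9.74, 9.58, 9.80, 10.05 and 10.10, and the placebo arrays read 9.80, 9.91, 9.83, 9.70 and 10.41. With 16 alpha LE2 every array but array 32 was below all placebo arrays, and array 32, at 9.74, was just above the lowest placebo array. The log2 change relative to placebo was −0.47 ± 0.16 (SE, 95% interval −0.79 to −0.15) and missed the threshold (limma adjusted p = 0.279). Without placebo array 36, the highest of the study for this gene, it was −0.35 (limma adjusted p = 0.431).

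A second probe set for Serpinh1 gave a larger difference of the same sign, −0.71 ± 0.17 on the log2 scale, in a fit over all 45037 probe sets (limma adjusted p = 0.172). For 17 beta estradiol and the beta-titled group relative to placebo the Serpinh1 changes were −0.07 and −0.08, with intervals from −0.39 to 0.25 and from −0.40 to 0.25. The means were 9.46 ± 0.20 with 16 alpha LE2, 9.86 ± 0.34 with 17 beta estradiol, 9.85 ± 0.22 in the beta-titled group and 9.93 ± 0.28 with placebo (log2 level, SD, n = 5 each).

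Pcolce binds the C-propeptide of procollagen and increases its removal by BMP1-type proteinases. It read 8.62, 8.36, 8.51, 8.24 and 8.40 on the 16 alpha LE2 arrays and 8.32, 8.68, 8.76, 9.42 and 9.18 on the 17 beta estradiol arrays. The beta-titled arrays read 9.03, 8.77, 8.61, 8.76 and 8.70, and the placebo arrays read 8.65, 8.73, 8.46, 8.45 and 8.98. The 16 alpha LE2 and placebo arrays overlapped, and the 17 beta estradiol arrays held both a low value, array 29, and the highest values of the study, arrays 34 and 35. The change with 16 alpha LE2 relative to placebo was −0.23 ± 0.15 (log2, SE; limma adjusted p = 0.712). With 17 beta estradiol it was 0.22 ± 0.15, the opposite sign, and it did not pass either (limma adjusted p = 0.516). A second probe set gave −0.18 and 0.25 for these log2 differences. Single arrays moved both: the change with 16 alpha LE2 was −0.14 without placebo array 36, and that with 17 beta estradiol was 0.09 without array 34 and 0.36 without array 29.

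Lox and Loxl1 encode secreted copper-dependent amine oxidases; Lox acts on collagen and elastin, and Loxl1 is known above all for elastic fibre maintenance in mice. Loxl1 read 8.23, 7.80, 7.61, 7.67 and 7.65 on the 16 alpha LE2 arrays and 7.93, 8.41, 8.21, 8.36 and 8.05 on the 17 beta estradiol arrays. The beta-titled arrays read 8.56, 8.04, 8.09, 8.16 and 7.68, and the placebo arrays read 8.31, 8.27, 8.20, 7.82 and 8.06. Array 29 was inside the placebo range, and the other 16 alpha LE2 arrays were below every placebo array. The log2 change was −0.34 ± 0.14 (SE, 95% interval −0.63 to −0.05), which did not pass (limma adjusted p = 0.449), and with array weights it was −0.44 (limma adjusted p = 0.0393). A second, dimmer probe set of Loxl1 gave −0.03 ± 0.07 (log2, SE).

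Lox did not follow Loxl1. It read 7.78, 8.24, 8.38, 8.40 and 8.42 on the 16 alpha LE2 arrays and 8.37, 8.04, 6.87, 7.65 and 8.08 on the 17 beta estradiol arrays. The beta-titled arrays read 7.74, 7.84, 7.82, 8.19 and 7.55, and the placebo arrays read 8.11, 8.34, 8.53, 8.09 and 7.77. The value of 6.87, on 17 beta estradiol array 33, was the lowest of the study. The changes relative to placebo were 0.07 ± 0.20 with 16 alpha LE2, −0.37 ± 0.20 with 17 beta estradiol and −0.34 ± 0.20 in the beta-titled group (log2, SE; limma adjusted p = 0.958, 0.499 and 0.707). Without array 33 the 17 beta estradiol change was −0.13 (limma adjusted p = 0.904).

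**Figure D2:**
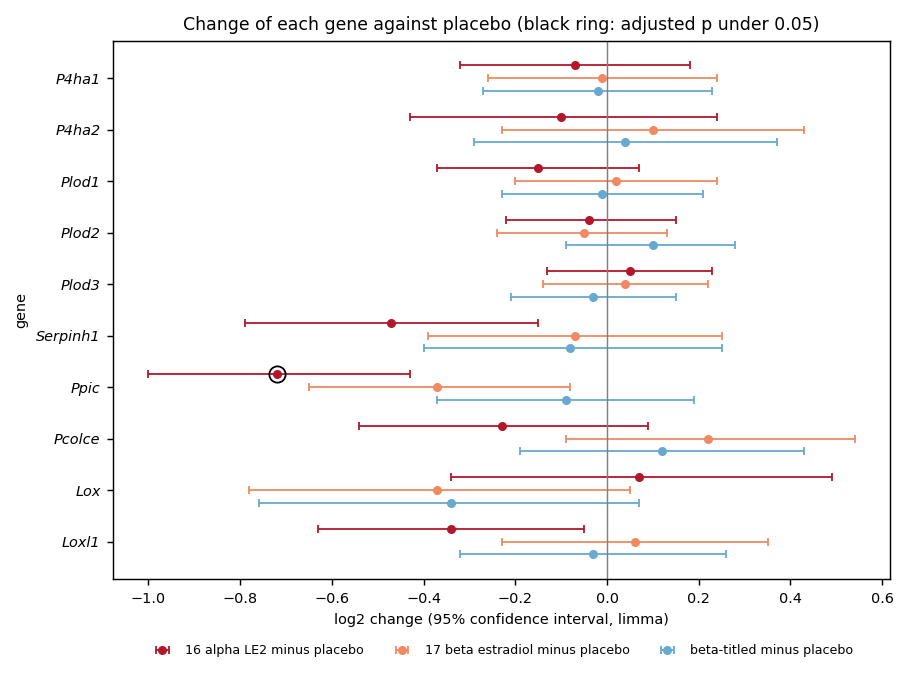
Log2 change relative to placebo (horizontal axis) of each gene (vertical axis) for 16 alpha LE2, 17 beta estradiol and the beta-titled group, with 95% confidence intervals from limma (n = 5 arrays a group) and a ring where the adjusted p was under 0.05. The single ring marks Ppic with 16 alpha LE2, at −0.72, and the intervals of Serpinh1 and Loxl1 with 16 alpha LE2 and of Ppic with 17 beta estradiol also lie below 0.

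Against placebo, 17 beta estradiol changed none of the 10 genes past the threshold, and no gene on the array passed (0 of 12082, 0%; 1163 genes, or 9.63%, had an unadjusted limma p under 0.05). Ppic was the only one of the 10 with such an unadjusted p, below placebo as were 7.23% of all genes. Of the 10 genes 5 were below and 5 above placebo, with a median log2 change of 0.0042, whereas 57.1% of all genes were below. Without 17 beta estradiol array 33, 4 of the 10 and 6151 of all 12082 genes were below. In the beta-titled group relative to placebo no gene passed either (0%; 689 genes, or 5.7%, at an unadjusted limma p under 0.05), and none of the 10 reached an unadjusted p under 0.05 (5.33% of all genes did so below placebo). This holds for the brightest probe set of each gene, whereas the second probe set of Lox reached that level. Of the 10 genes 7 were below placebo, as were 62.6% of all genes. After quantile normalization these counts were 1 of 10 and 5721 of all 12082 genes, so the sign of these small changes depended on the scaling. Their log2 changes ran from −0.34 for Lox to 0.12 for Pcolce. The 3 comparisons with placebo share the placebo arrays, so their values are given side by side and not as repeats of each other.

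The agonists were then compared directly, in the same limma fit. None of the 10 genes passed, and 2 of all 12082 genes did (0.0166%). At an unadjusted p under 0.05, 4 of the 10 were lower with 16 alpha LE2 than with 17 beta estradiol and 1 was higher, against 2.92% of all genes lower and 5.19% in either direction. Of the 10, 7 were lower with 16 alpha LE2, as were 56.3% of all genes (9 of the 10 and 7584 of all genes without 17 beta estradiol array 33). Pcolce differed by −0.45 ± 0.15 (log2, SE; 95% interval −0.76 to −0.14, limma adjusted p = 0.699) and Loxl1 by −0.40 ± 0.14 (−0.69 to −0.11, limma adjusted p = 0.727). For Serpinh1 the difference was −0.40 ± 0.16 (−0.72 to −0.08) and for Ppic −0.35 ± 0.14 (−0.63 to −0.07), both with a limma adjusted p of 0.875. Lox was the gene on the other side, at 0.44 ± 0.20 (0.03 to 0.86, limma adjusted p = 0.875), and without 17 beta estradiol array 33 it stood at 0.21 (limma adjusted p = 0.884). The intervals for P4ha1 (−0.31 to 0.19), P4ha2 (−0.53 to 0.14), Plod1 (−0.38 to 0.06), Plod2 (−0.17 to 0.20) and Plod3 (−0.16 to 0.19) include 0 and do not show that the agonists act alike on these genes.

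Relative to the beta-titled group, 16 alpha LE2 lowered none of the 10 genes past the threshold, while 21 of all genes passed (0.174%), 12 of them lower (0.0993%). Ppic came closest, with every 16 alpha LE2 array below every beta-titled array, as for 1.28% of all genes, and a log2 difference of −0.63 ± 0.14 (SE, 95% interval −0.91 to −0.35, limma adjusted p = 0.0632). This value passed without 17 beta estradiol array 29 or 33 (limma adjusted p = 0.0481 and 0.0382) and without placebo array 33 or 36 (0.0293 and 0.0353), arrays that enter only the shared estimate of the spread. Serpinh1 (−0.40), Pcolce (−0.35) and Loxl1 (−0.32) were lower and Lox (0.42) higher at an unadjusted limma p under 0.05, with adjusted p from 0.663 to 0.892. With Ppic these were 4 genes lower and 1 higher, against 2.84% of all genes lower and 5.6% in either direction at that level. Of the 10 genes 8 lay below the beta-titled group, as did 48.1% of all genes. The log2 difference of 17 beta estradiol from the beta-titled group passed for no gene (0%; 3.83% at an unadjusted limma p under 0.05, 1.51% lower), and none of the 10 reached that level. Of the 10 genes 3 were below the beta-titled group, as were 40.6% of all genes (6 of the 10 and 6019 of all genes after quantile normalization), and for Ppic the difference was −0.28 ± 0.14 (SE; limma adjusted p = 0.925).

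**Figure D3:**
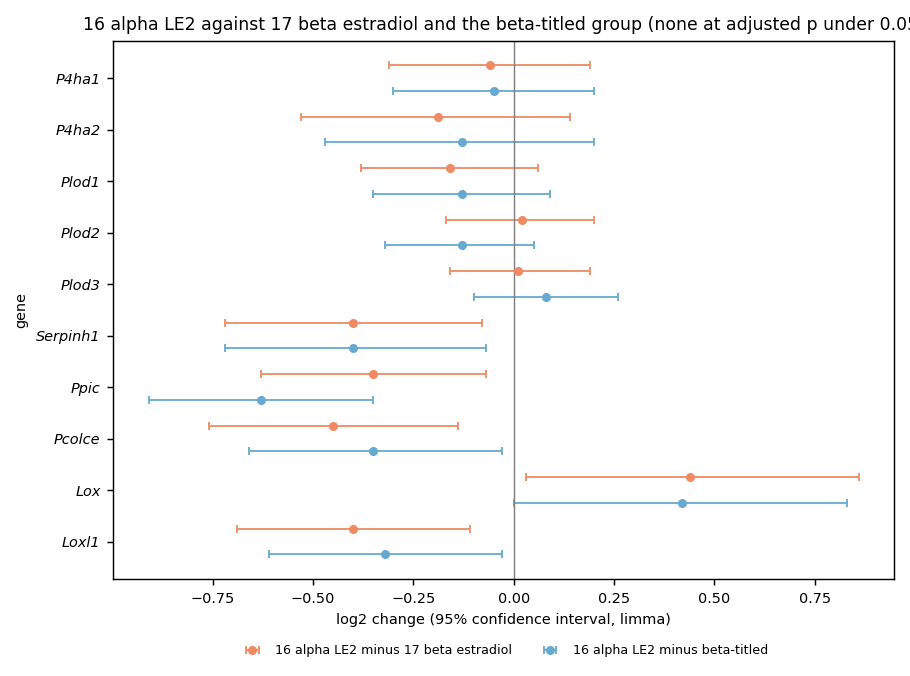
Log2 difference (horizontal axis) of 16 alpha LE2 from 17 beta estradiol and from the beta-titled group for each gene (vertical axis), with 95% confidence intervals from limma (n = 5 arrays a group). Serpinh1, Ppic, Pcolce and Loxl1 lie below 0 and Lox above 0 in both comparisons, and no difference passed after adjustment.

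Ppic, Serpinh1 and Loxl1 were the 3 genes of the 10 for which 16 alpha LE2 was lower than each of 17 beta estradiol, the beta-titled group and placebo at an unadjusted limma p under 0.05. For Loxl1 this held on the brighter probe set, whereas the dimmer one gave log2 differences of −0.12, −0.06 and −0.03 in the same order, with unadjusted limma p of 0.103, 0.441 and 0.678. Of all tested genes 115, or 0.952%, met this description. These comparisons share the 16 alpha LE2 arrays.

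Other genes of collagen processing were read from a list of 30, of which 20 were tested, and none of these passed in any comparison with all arrays weighted equally and scaled as deposited. With 16 alpha LE2 relative to placebo 15 of the 20 were below 0 (12 after quantile normalization), with a median log2 change of −0.05, beside 59.7% and −0.03 over all genes. The closest was Pcolce2, a relative of Pcolce that also enhances propeptide removal, at 9.54 ± 0.12 with 16 alpha LE2 against 9.99 ± 0.14 with placebo (log2 level, SD, n = 5 each) and a change of −0.46 ± 0.12 (SE; limma adjusted p = 0.149). Without 17 beta estradiol array 33 this change passed (limma adjusted p = 0.04), as it did with array weights (limma adjusted p = 0.00377). Relative to the beta-titled group Pcolce2 passed with array weights (−0.46, limma adjusted p = 0.00828) and after quantile normalization (−0.43, limma adjusted p = 0.0238). Ppib, the endoplasmic reticulum cyclophilin of the complex that hydroxylates a single proline of collagen, had −0.23 ± 0.09 (limma adjusted p = 0.47). Adamts3, a proteinase that cuts the N-propeptide, had 0.16 ± 0.06 (limma adjusted p = 0.415, and 0.0446 with array weights), and Fkbp9, an isomerase of another family, had −0.19 ± 0.10.

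P4hb, the partner subunit of the prolyl 4-hydroxylases, had a log2 change of −0.19 ± 0.13 with 16 alpha LE2 relative to placebo (limma adjusted p = 0.716). Bmp1, the proteinase that Pcolce enhances, had −0.06 ± 0.11 (limma adjusted p = 0.928). P4ha3, with a mean of 6.25, lay below the filter, and Loxl2 was read only by probe sets with several symbols, so neither was tested. With 17 beta estradiol relative to placebo the smallest p of the list were those of Adamts3 (0.19 ± 0.06, limma adjusted p = 0.499), Pcolce2 (−0.24 ± 0.12), P3h2, a prolyl 3-hydroxylase (0.09), and Fkbp11 (−0.09). In the beta-titled group they were those of Ppib (−0.15), P4hb (−0.21), Tmem38b, an endoplasmic reticulum ion channel (−0.24), and Sec23a, a coat protein of vesicles that leave the endoplasmic reticulum (−0.19), none of which passed.

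The fibrillar collagen chains are what the collagen-modifying enzymes of the set act on, and 2 of the 6 chains tested fell with 16 alpha LE2 relative to placebo. Col3a1 averaged 9.07 ± 0.31 with 16 alpha LE2, 10.19 ± 0.14 with 17 beta estradiol, 10.64 ± 0.33 in the beta-titled group and 10.56 ± 0.55 with placebo (log2 level, SD, n = 5 each). Its 16 alpha LE2 arrays, at 8.75 to 9.55, lay below all arrays of the other groups, the lowest of which read 9.93, and the log2 change from placebo was −1.48 ± 0.20 (SE; limma adjusted p = 0.0011). Col5a2, which forms type V collagen, averaged 8.11 ± 0.14, 8.47 ± 0.16, 8.76 ± 0.20 and 8.77 ± 0.26 in the same order of groups, with a log2 change of −0.65 ± 0.12 from placebo (SE; limma adjusted p = 0.0147), and after quantile normalization it was −0.56 and did not pass (limma adjusted p = 0.0557). Col1a2 had −0.60 ± 0.16 (limma adjusted p = 0.134), and Col1a1, Col5a1 and Col5a3 had −0.11, −0.12 and 0.04. The mean log2 levels of Col1a1, Col5a1 and Col5a3 were 7.26, 7.59 and 7.64, not far above the filter at 6.93. Those of Col3a1, Col5a2 and Col1a2 were 10.12, 8.53 and 9.60. Small changes on dim probe sets do not show that these chains were unchanged. The median log2 change was −0.36 over the 6 chains and −0.12 over the 10 processing genes, and no test of that difference was made.

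The values of fibroblast markers are given beside these. All 8 of the 8 fibroblast markers tested were below placebo with 16 alpha LE2 (7 after quantile normalization), with a median log2 change of −0.32. An unadjusted limma p under 0.05 was reached by 6 of them and the threshold by none, whereas 4 passed with array weights and 1 without 17 beta estradiol array 33. Of all genes, 59.7% were below placebo, and 7.8% were lower at an unadjusted limma p under 0.05 (9.01% in either direction). With array weights 357 of all 12082 genes passed, 305 of them lower, and 74 passed without 17 beta estradiol array 33. The summed level of the 8 fibroblast markers, as log2, was 14.01 to 14.27 on the 16 alpha LE2 arrays. It was 14.12 to 14.50 on the 17 beta estradiol arrays, 14.22 to 14.47 on beta-titled and 14.02 to 14.73 on placebo arrays. The brightest marker, Dcn, with a mean of 13.66 and a log2 change of −0.16, weighs most in that sum. By the mean log2 level of the markers, every 16 alpha LE2 array lay below every beta-titled array (10.17 to 10.28). The 16 alpha LE2 arrays, the lowest at 9.86, overlapped those of 17 beta estradiol (9.96 to 10.34) and placebo (9.99 to 10.55). No marker was near the bottom of the range. Postn, a matrix protein of activated fibroblasts, had a log2 change of −0.87 and Tcf21, a fibroblast transcription factor, one close to 0 (limma adjusted p = 0.0727 for Postn). The median of 7 endothelial markers was −0.30, also with none past the threshold (5 with array weights, 4 of them lower). At an unadjusted limma p under 0.05, 5 of the 7 were lower and 1, Vwf at 0.66, was higher, beside the same shares over all genes. The median of the 8 cardiomyocyte markers was −0.04. The part of these markers in the results for Ppic, Serpinh1 and Loxl1 was not tested.

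**Figure D4:**
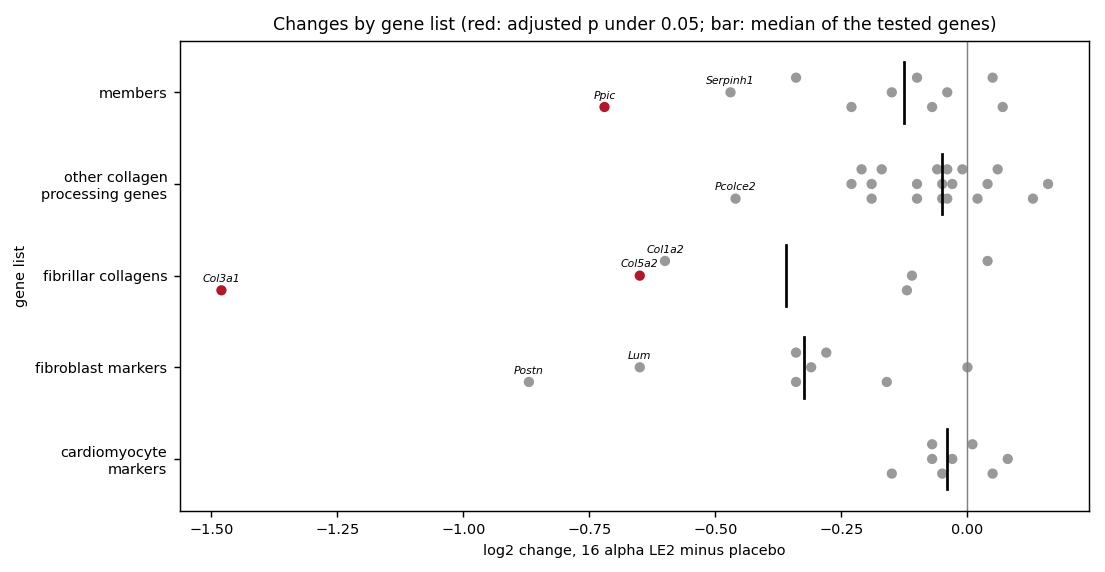
Log2 change with 16 alpha LE2 relative to placebo (horizontal axis) of each tested gene in 5 gene lists (vertical axis), with 1 point a gene, red where the limma adjusted p was under 0.05, and a bar for the list's median. Ppic, Col3a1 and Col5a2 are red, and the medians run from −0.36 for the fibrillar collagens to −0.04 for the cardiomyocyte markers.

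Within groups the 10 genes did not vary as one block. After each group's mean was taken off, P4ha1, P4ha2, Plod1, Plod3, Serpinh1 and Pcolce deviated together over the 20 arrays, with Pearson's r from 0.36 to 0.87 over their 15 pairs and a median of 0.72. These 6 genes were picked after the values were seen, and the arrays share sample handling and scaling, so the correlations are descriptions. The closest pair was P4ha2 with Plod1, at r = 0.87. Ppic ran the other way, with r from −0.47 to −0.28 against each of the 6, and went with Lox at r = 0.61. Over all 45 pairs of the 10 genes r ran from −0.47 to 0.87 with a median of 0.28.

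The highest and lowest values of a group often fell on the same array. Within 17 beta estradiol, array 34 held the highest value of the group for 7 of the 10 genes and array 29 the lowest for 6. Array 30 held the lowest value of the 16 alpha LE2 group for 6 genes. The beta-titled array 36 and the placebo array 36, which are different samples, each held the highest value of their group for 5 genes.

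**Figure D5:**
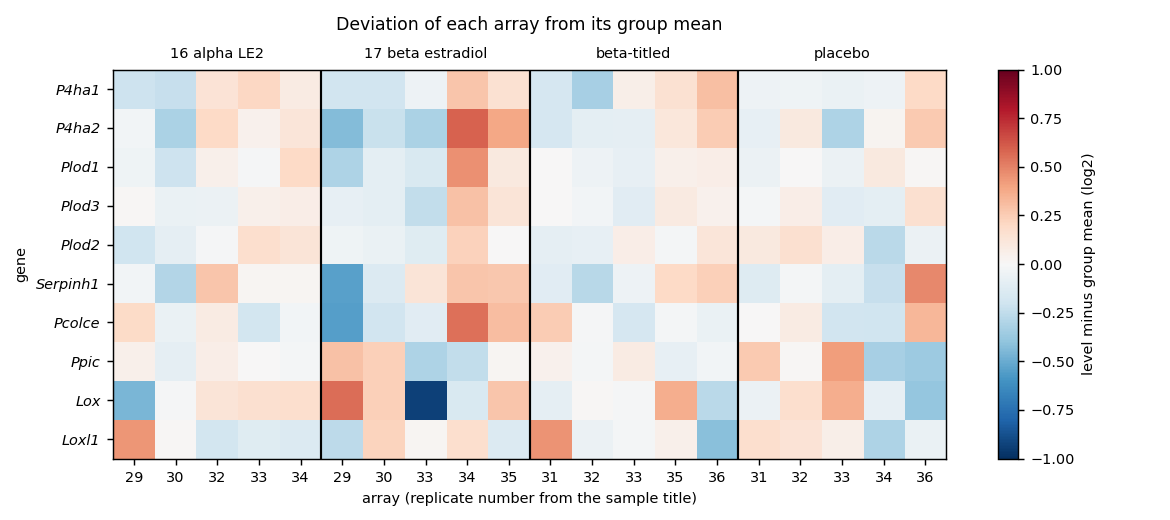
Deviation of each array from the mean of its group (colour, log2 units) for each of the 10 genes (vertical axis) on each array (horizontal axis, numbered as in the titles, in the groups 16 alpha LE2, 17 beta estradiol, beta-titled and placebo). The upper rows are red together on 17 beta estradiol array 34 and blue together on array 29, and Lox is dark blue on 17 beta estradiol array 33.

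The genes whose levels were most like those of a member over the 20 arrays differed from member to member. For Ppic they were Itih5 (r = 0.94), Col5a2 (0.92), Col8a1 (0.91), Postn (0.91) and Itm2a (0.91). With the group means taken off none of these was among the 5 closest to Ppic. Those were then Mbip (0.90), Ebf1 (0.88), Lum (0.88), a proteoglycan of the collagen matrix, Ift80 (0.88) and Diaph2 (0.87). For Loxl1 they were Col1a2 (0.89), Col6a1 (0.89), Col5a1 (0.87), B3glct (0.85) and Col6a2 (0.82). Col5a1 (0.88), Col1a2 (0.87), Col6a1 (0.85) and Col6a2 (0.84) were still the closest to Loxl1 with the group means taken off. Serpinh1 was closest to Fhl2 (0.81) by level. By deviation it was closest to Axl (0.85), Nagpa (0.83), Calr (0.83), an endoplasmic reticulum chaperone, Il33 (0.82) and Serping1 (0.81). Pcolce was closest to Dusp7 (0.92), P4ha2 to Alpl (0.95), Lox to Ranbp9 (0.90) and P4ha1 to Egln3 (0.88), an oxygen-sensing prolyl hydroxylase that acts on other proteins than collagen. Each r is over the same 20 arrays, which share their scaling, and was picked as one of the 5 highest over all tested genes.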

How the data were processed

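Total RNA of 20 ventricle samples (100 ng each) was labelled with biotin and hybridised to Affymetrix mouse arrays, per the labels. The deposited values, 1 per probe set (45101) and array, were read as log2 from their range of 5.07 to 15.31, while how the authors summarized and normalized them, and the log base, is not stated in the labels. No background signal was used, and the number of arrays limits the precision: the median half-width of a 95% interval was 0.21 log2 units.

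After 64 controls were left out, probe sets with a single gene symbol in the platform annotation (34945) were filtered to a mean over 6.93 (the median probe set), and the brightest was taken for each gene, so that 12082 of 18193 genes were tested. The IDs of all 10 members were found in the RefSeq gene table. One limma 3.58.1 fit (R 4.3.3) held all arrays (group means, eBayes with an intensity trend), in 6 comparisons between groups, with a threshold of 0.05 on p-values adjusted by Benjamini-Hochberg across the tested genes. The fit was tested on simulated data.

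Groups follow the sample titles. The members and lists were chosen with earlier results of these data known. The text names all members, all fibrillar collagens, up to 4 genes of the processing list with the smallest p in each comparison with placebo, P4hb, Ppib, Bmp1, Loxl2 and P4ha3, and the genes most like a member. Of 30 processing genes 26 were matched; Fkbp10, Adamts2 and Adamts14 were among those that were not. Other settings were the filter, averaged probe sets, quantile normalization, array weights, the groups fitted, the replicate number as a block and leaving out each array. The other probe sets of each member, and the lists under each scaling, were added after the data were examined. Promoter sequences are from RefSeq (GRCm38.p6). Figures were drawn with matplotlib 3.10.9.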

Additional observations from a re-analysis of the deposited data

Results flagged for a closer look

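In 2 of 40 sets of 5 values (each of the 10 genes in each group) a single array stood apart by Dixon's criterion for 5 samples (0.71), and chance alone sets apart about 1 in 20 groups. P4ha1 on placebo array 36 read 8.54 on the log2 scale, while the other placebo arrays read 8.27 to 8.29, a gap of 0.918 of the group's range. Lox on 16 alpha LE2 array 29 read 7.78, while the other arrays of that group read 8.24 to 8.42, a gap of 0.713 of the range. Without that array the log2 change of Lox with 16 alpha LE2 relative to placebo was 0.19, against 0.07 with it, and it passed in neither case.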

How the results depend on the processing

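The limits are those of 5 arrays a group, unknown doses, an unstated normalization and, for the beta-titled group, labels that disagree. Probe set signals near the bottom of the range are not separated from background. The call of Ppic with 16 alpha LE2 relative to placebo held in 20 of 27 alternative settings and its direction in all. These settings include leaving out each beta-titled or 17 beta estradiol array, which cannot move the log2 change of −0.72 and alters only the estimate of the spread. Of the 20 arrays left out in turn, 6 lost the call, all of them 16 alpha LE2 or placebo arrays. The limma adjusted p ran from 0.00707 to 0.107 as single arrays were left out. It was 0.000292 with array weights, 0.047 after quantile normalization and 0.0548 with only the 2 groups compared, where the number of members called was 0. With array weights, which gave 17 beta estradiol array 33 a weight of 0.0795, Loxl1 passed as well, so 2 members were called, and 357 genes in all. The count of genes for this comparison was 16 with probe sets averaged, and 8 to 74 as single arrays were left out, with 0 to 1 members. For 16 alpha LE2 relative to the beta-titled group, Ppic passed as the 1 member with array weights (limma adjusted p = 0.00433, and 122 genes in all), with the filter at a mean of 8 (0.031), with only these groups (0.00159, and 46 genes) and after quantile normalization (0.0144, and 32 genes), and 7 to 37 genes and 0 to 1 members passed as single arrays were left out. For 16 alpha LE2 relative to 17 beta estradiol the count of 2 genes became 20 with array weights, 4 with the filter at a mean of 8, without the filter or with the replicate number as a block, 0 with probe sets averaged, and 0 to 11 without single arrays. It was 0 to 1 without single arrays for 17 beta estradiol relative to placebo and to the beta-titled group.

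No regular pairing by replicate number was seen: over 17 pairs of arrays with the same number in different groups, deviations correlated at −0.35 to 0.51 with a mean of 0.01. Of these pairs 6 exceeded 0.1, the highest being array 35 of the beta-titled and 17 beta estradiol groups. Whether samples of some numbers were handled together was not tested. With the number as a block, the log2 difference of 16 alpha LE2 for Ppic was −0.80 relative to placebo (limma adjusted p = 0.0399) and −0.67 relative to the beta-titled group (0.177), that for Serpinh1 was −0.22 and −0.09 in these comparisons (0.654 and 1), and no call among the 10 genes changed. Small changes that were not called turned sign in 38 of 422 values under other settings and 57 of 1200 without single arrays. With the replicate number as a block values turned to −0.11 for Lox, 0.11 for P4ha1, 0.11 for P4ha2 and 0.04 for Plod2 (16 alpha LE2 relative to placebo), to 0.14 for P4ha1 and 0.08 for P4ha2 (16 alpha LE2 relative to the beta-titled group), to 0.12 for P4ha1, 0.04 for Plod2 and 0.13 for Serpinh1 (17 beta estradiol relative to placebo), to 0.02 for Plod1 (the beta-titled group relative to placebo). With array weights values turned to 0.18 for Lox, −0.05 for P4ha1 and −0.07 for Serpinh1 (17 beta estradiol relative to the beta-titled group), to 0.07 for P4ha1, 0.00015 for Plod1 and 0.02 for Serpinh1 (the beta-titled group relative to placebo), to 0.02 for P4ha1 (17 beta estradiol relative to placebo), to −0.05 for Plod3 (16 alpha LE2 relative to 17 beta estradiol). With the probe sets of a gene averaged values turned to 0.06 for Lox, −0.02 for P4ha1, −0.00071 for Plod1 and −0.03 for Serpinh1 (17 beta estradiol relative to the beta-titled group), to 0.00031 for Loxl1, 0.01 for P4ha1 and 0.02 for Plod1 (the beta-titled group relative to placebo). After quantile normalization values turned to 0.03 for Loxl1, 0.03 for P4ha1, 0.06 for Plod1, 0.01 for Plod3, 0.06 for Ppic and 0.06 for Serpinh1 (the beta-titled group relative to placebo), to −0.0014 for P4ha1, −0.0019 for Plod1 and −0.02 for Serpinh1 (17 beta estradiol relative to the beta-titled group), to 0.03 for P4ha1 and 0.04 for Serpinh1 (17 beta estradiol relative to placebo). On another probe set of the gene values turned to 0.00095 for P4ha1 and 0.03 for Plod2 (16 alpha LE2 relative to placebo). The ranges that follow cover only the fits with single arrays left out in turn, for the changes that turned sign there. For 17 beta estradiol relative to the beta-titled group these changes ran from −0.17 to 0.21 for Lox, −0.02 to 0.20 for Loxl1, −0.07 to 0.09 for P4ha1, −0.09 to 0.17 for P4ha2, −0.03 to 0.24 for Pcolce, −0.09 to 0.11 for Plod1, −0.01 to 0.13 for Plod3 and −0.07 to 0.14 for Serpinh1. For 16 alpha LE2 relative to placebo these changes ran from −0.02 to 0.19 for Lox and −0.10 to 0.01 for Plod2. For 17 beta estradiol relative to placebo these changes ran from −0.02 to 0.12 for Loxl1, −0.08 to 0.04 for P4ha1, −0.05 to 0.21 for P4ha2, −0.10 to 0.09 for Plod1, −0.03 to 0.10 for Plod3 and −0.14 to 0.06 for Serpinh1. For the beta-titled group relative to placebo these changes ran from −0.14 to 0.08 for Loxl1, −0.10 to 0.06 for P4ha1, −0.04 to 0.10 for P4ha2, −0.03 to 0.01 for Plod1, −0.06 to 0.01 for Plod3, −0.18 to 0.02 for Ppic and −0.14 to 0.04 for Serpinh1. For 16 alpha LE2 relative to 17 beta estradiol these changes ran from −0.11 to 0.01 for P4ha1, −0.03 to 0.08 for Plod2 and −0.05 to 0.09 for Plod3. For 16 alpha LE2 relative to the beta-titled group these changes ran from −0.13 to 0.03 for P4ha1. The cause of these turns was not tested.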

Other observations

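Genes known to respond to low oxygen were read because P4ha1, P4ha2 and Plod2 belong to such a response in other tissues. Of 9 tested, none passed with 16 alpha LE2 relative to placebo, with a median log2 change of 0.09, 5 above and 4 below 0. After quantile normalization 1 of them passed, higher, as did 1 without 17 beta estradiol array 33, and with array weights 1 passed higher and 1 lower. Slc2a1, a glucose transporter, was the 1 gene of this list that passed with 16 alpha LE2 relative to the beta-titled group, at 0.47 ± 0.10 (SE), while P4ha1, P4ha2 and Plod2 had −0.05, −0.13 and −0.13 there. The mean log2 level of the list was 9.47 to 9.70 on the 16 alpha LE2 arrays, 9.31 to 9.70 on the 17 beta estradiol arrays, 9.35 to 9.61 on the beta-titled arrays and 9.49 to 9.64 on the placebo arrays, and these ranges overlap. Of 3 red blood cell genes tested, Slc4a1 rose with 16 alpha LE2 relative to placebo (log2 change 0.57 ± 0.11, SE, limma adjusted p = 0.0256). Alas2 had 0.95 ± 0.27 (limma adjusted p = 0.173) and Hba-a1 0.06 ± 0.09 (limma adjusted p = 0.913), and neither passed.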
